A study of Mus musculus with 2 samples.

Results

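The cytosolic ribosomal protein genes of the mouse were taken by symbol from the protein-coding genes of GENCODE M21: symbols of Rpl or Rps followed by a digit, with Rplp0, Rplp1, Rplp2 and Rpsa. The kinases whose symbols start with Rps6k, the binding protein Rps19bp1 and symbols ending in -ps and a number were not taken. This gave 85 of 21938 protein-coding genes, of which 49 encode large subunit proteins, 33 small subunit proteins and 3 proteins of the stalk, spread over 19 chromosomes. The choice used no measured value. DNase-seq maps chromatin that the nuclease DNase I can cut. It was run on 2 libraries from hippocampal tissue of B6CASTF1/J females aged 25 days, F1 hybrids carrying a C57BL/6J and a CAST/EiJ genome. The labels call the tissue a layer of hippocampus without naming the layer, number the libraries as biological replicates 1 and 2, each with its own biosample, and name the same donor for both. Whether separate animals were used is not stated, and the spread between the libraries may therefore be technical. Both libraries belong to 1 group, so the members are described beside all other genes and no test between conditions was possible.

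Ribosomal proteins surround the ribosomal RNA of the large and small subunits, and each subunit needs its set in equal numbers. Their genes are transcribed in nearly all cells, mostly from CpG-rich promoters without a classical TATA box, and their transcripts begin with a run of pyrimidines, the TOP motif, through which mTOR signalling controls translation. In neurons, ribosomal protein transcripts are also known from dendrites and axons, where local protein synthesis supports synaptic plasticity. Many members have processed pseudogenes, copies made by reverse transcription that left the parent's promoter behind.

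Each library came with peaks, peak signals, footprints and bases of significant cut rate on the mm10 build. The stricter peak lists held 61466 peaks in replicate 1 and 50379 in replicate 2, and the footprint lists held 236942 and 159538 intervals. Read depth is unknown from these files, and the scaling of the signal is not stated, so signals are given per library and not averaged. Of the cell type markers, 5 of 7 excitatory neuron promoters were open in both libraries, among them Camk2a and Neurod2. Prox1, a granule cell marker, had a peak in replicate 2 only and Slc17a7, the vesicular glutamate transporter, in replicate 1 only. Open markers numbered 1 of 4 for astrocytes (Gfap) and 0 of 4 for oligodendrocytes, 0 of 3 each for GABAergic neurons and microglia, and 0 of 2 each for endothelium, liver and skeletal muscle. In replicate 1 alone the astrocyte markers Aldh1l1 and Slc1a3 and the oligodendrocyte marker Mbp also had a peak. In such bulk tissue, fewer cells with an open promoter and a less accessible promoter in each cell cannot be told apart.

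A promoter was called open when a peak of the stricter list of both libraries reached to 500 bp or less from a start annotated for that gene. By this rule 81 of the 85 members were open, or 95.3%, beside 54.2% of all protein-coding genes. All 3 stalk genes, 46 of 49 large subunit genes and 32 of 33 small subunit genes were open. The same number, 81, was open in replicate 1 alone (60.2% of all genes) and in replicate 2 alone (54.8%), so no member was open in only 1 library. It was also 81 with the longer peak lists (59.7%) and with windows of 200 bp (52.3%) and of 2000 bp (57.8%). Of the 68 members with no start of another protein-coding gene in the window, 64 were open, beside 49.2% of all such genes.

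The 4 members that were not open are all paralogues of other members. Rpl3l, on chromosome 17 from 24727820 to 24736143, is the striated muscle paralogue of Rpl3. Rpl10l, on chromosome 12 from 66283379 to 66284401, is a testis-expressed copy of the X-linked Rpl10. Rpl39l, on chromosome 16 from 10170226 to 10174911, is likewise known from the testis, and Rps27rt, on chromosome 9 from 114982366 to 114982739, is a retrogene of Rps27. None of the 4 had a peak in either list, a footprint or a base of significant cut rate in the window, in either library. The nearest strict peak lay 352229 bp away in replicate 1 and 186611 bp away in replicate 2 for Rpl10l, and 22334 and 22554 bp away for Rpl39l. For Rpl3l it lay 3259 bp away in both libraries, with signals of 12.6 and 2.82, and for Rps27rt 3650 and 25510 bp away. The parents of these 4 genes were all open. Rpl3, the large subunit protein closest to the peptidyl transferase centre, had signals of 7.21 in replicate 1 and 3.04 in replicate 2.

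The retrogene Rps27rt and its parent show what such a copy carries. Their RefSeq sequences (GRCm38.p6) around the start are printed from 50 bases before it to 29 bases after it, 5′ to 3′ on the gene's strand, with the bases of their shared run in capitals.
Rps27, chr3:90213619-90213698, minus strand: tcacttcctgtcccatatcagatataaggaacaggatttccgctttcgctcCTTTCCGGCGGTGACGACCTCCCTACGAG
Rps27rt, chr9:114982710-114982789, minus strand: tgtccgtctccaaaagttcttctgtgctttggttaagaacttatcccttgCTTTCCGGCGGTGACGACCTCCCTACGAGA
An identical run of 38 bases begins 1 base after the start of Rps27 and at the start of Rps27rt, and it opens with CTTTCC, a pyrimidine run of the TOP kind. Of the 200 bases before the starts, compared base by base without gaps, 20.5% were identical. Rps27 had peak signals of 3.53 in replicate 1 and 2.12 in replicate 2, and Rps27rt had no peak. Reads from the shared run cannot be told apart between both copies, and how the authors placed such reads is not given in the sources used here.

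Open members had stronger peaks than other open genes in both libraries. The signal of the strongest peak had a median of 6.18 for the 81 open members in replicate 1, against 4.29 for the 11809 other open genes, and of 2.51 in replicate 2, against 1.79. The fold of the medians was 1.44 in replicate 1 and 1.40 in replicate 2, or 0.53 and 0.49 on the log2 scale (SD between libraries 0.028, n = 2). The distributions overlapped widely: the quartiles of the members were 4.29 and 7.71 in replicate 1 and 1.99 and 3.11 in replicate 2, against 2.62 and 6.21 and 1.16 and 2.49 for the other open genes. Above the median of the other open genes were 60 of 81 members in replicate 1 and 69 of 81 in replicate 2. In the top 10% of open genes in both libraries were 13 of 81 members, or 16%, beside 5.52% of all open genes, and in the bottom 10% of both were 0 of 81, beside 7.18%. Peak width did not separate them, with medians of 220 bp in replicate 1 and 260 bp in replicate 2 for the members and the same for the others.

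**Figure D1:**
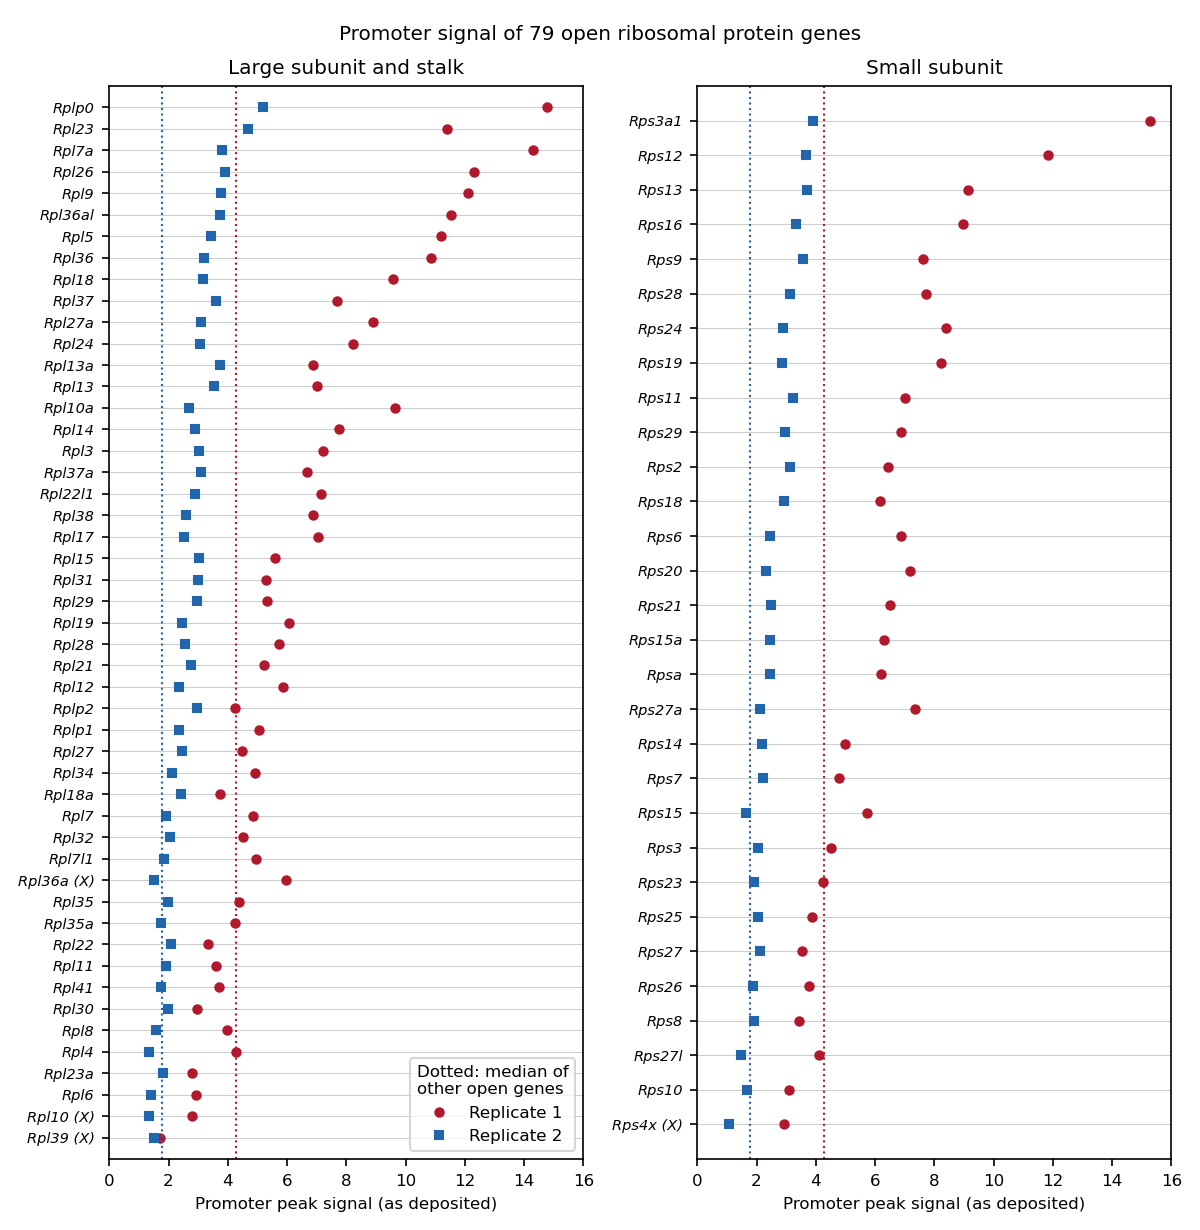
Signal of the strongest promoter peak (x axis, units as deposited) of 79 of the 81 open ribosomal protein genes in replicate 1 (circles) and replicate 2 (squares), in order of mean rank, with the medians of other open genes as dotted lines at 4.29 and 1.79. Every member plotted lies higher in replicate 1, and the X-linked members Rpl10, Rpl39 and Rps4x stand at the low end.

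The 10 members of highest mean rank came from both subunits and the stalk. Rplp0, the protein at the base of the stalk that recruits elongation factors, led with 14.8 in replicate 1 and 5.21 in replicate 2. Its strongest peaks, at chr5:115559261-115559480 in replicate 1 and chr5:115559281-115559520 in replicate 2, covered its start at position 115559467. Rps3a1, a small subunit protein, had the highest signal of all members in replicate 1, 15.3, and 3.91 in replicate 2. Among open genes Rplp0 stood at percentile 99.4 in replicate 1 and 99.8 in replicate 2, and Rps3a1 at 99.6 and 97.7. Rpl23, which binds Mdm2 when not assembled into ribosomes, had 11.4 and 4.69. The large subunit genes Rpl7a (14.3 and 3.8), Rpl26 (12.3 and 3.91) and Rpl9 (12.1 and 3.79) came next. After them, Rpl36al had 11.5 and 3.75, Rps12 had 11.8 and 3.68, Rpl5 had 11.2 and 3.45, and Rps13 had 9.14 and 3.71. All 10 were in the top 10% of open genes in both libraries.

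The 5 open members of lowest mean rank were Rpl39, Rps4x, Rpl10, Rpl6 and Rps10. Rps10, a small subunit gene mutated in some patients with Diamond-Blackfan anaemia, had 3.08 in replicate 1 and 1.69 in replicate 2. Rpl6 had 2.92 and 1.43. The other 3 lie on the X chromosome and are given with the X-linked members. Between these ends the subunits hardly differed: the 46 open large subunit genes had medians of 5.79 and 2.57, and the 32 open small subunit genes 6.47 and 2.46.

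The stalk and a pair of proteins that assemble together were compared within themselves. Within the stalk, Rplp1 had 5.04 in replicate 1 and 2.34 in replicate 2 and Rplp2 had 4.24 and 2.96, both far below Rplp0 although P1 and P2 dimers bind P0 directly. Rpl5 and Rpl11 enter the ribosome together with a ribosomal RNA of the large subunit and, when free, restrain Mdm2. Rpl5 had 11.2 and 3.45, against 3.6 and 1.91 for Rpl11, so the partners stood on opposite sides of the members' median in both libraries. Among small subunit genes, Rps19, the gene most often mutated in Diamond-Blackfan anaemia, had 8.23 and 2.85. Rps27a, which encodes a fusion with ubiquitin, had 7.36 and 2.13. Rps6, the substrate of the S6 kinases, had 6.88 and 2.46, and Rpsa, also described as a laminin receptor, had 6.21 and 2.45.

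Paralogues that are used beside their parents in many tissues were all open, and none was uniformly weaker than its parent. Rpl22l1 had 7.13 in replicate 1 and 2.88 in replicate 2, against 3.33 and 2.07 for Rpl22, so the paralogue was higher in both libraries. Rpl36al, an autosomal copy of the X-linked Rpl36a, had 11.5 and 3.75, against 5.97 and 1.51 for Rpl36a. Rpl7l1 had 4.94 and 1.85, against 4.87 and 1.92 for Rpl7, and the order turned between libraries. Rps27l, a Trp53 target, had 4.10 and 1.47, against 3.53 and 2.12 for Rps27, again with the order turned.

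The 4 X-linked members were weaker than most autosomal members. Rpl36a, which sits near the exit site for transfer RNA, had 5.97 in replicate 1 and 1.51 in replicate 2. Rps4x, a small subunit protein with a Y-linked counterpart in humans, had 2.91 and 1.09. Rpl10, which joins the large subunit late in its assembly, had 2.79 and 1.35, and Rpl39, a small protein at the exit tunnel, had 1.70 and 1.51. Rpl36a lay near the middle of the members in replicate 1, and the other values were low in both libraries. Medians were 2.85 and 1.43 for the X-linked members, against 6.29 and 2.60 for the 77 open autosomal members, a fold of 0.454 and 0.549. Groups overlapped: 35 autosomal members were at or below the highest X-linked member in replicate 1 and 3 in replicate 2. Other open genes differed by chromosome to a like degree, with medians of 2.00 and 0.915 for 370 X-linked genes against 4.38 and 1.82 for 11439 autosomal genes, a fold of 0.456 and 0.502. The lower level of X-linked promoters was therefore not limited to ribosomal protein genes. The X-linked members also had a lower median CpG observed to expected ratio, 0.673 against 0.816 in the autosomal members. As background, female cells silence most genes of an X chromosome. The part of X inactivation and of CpG content in the result was not tested.

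**Figure D2:**
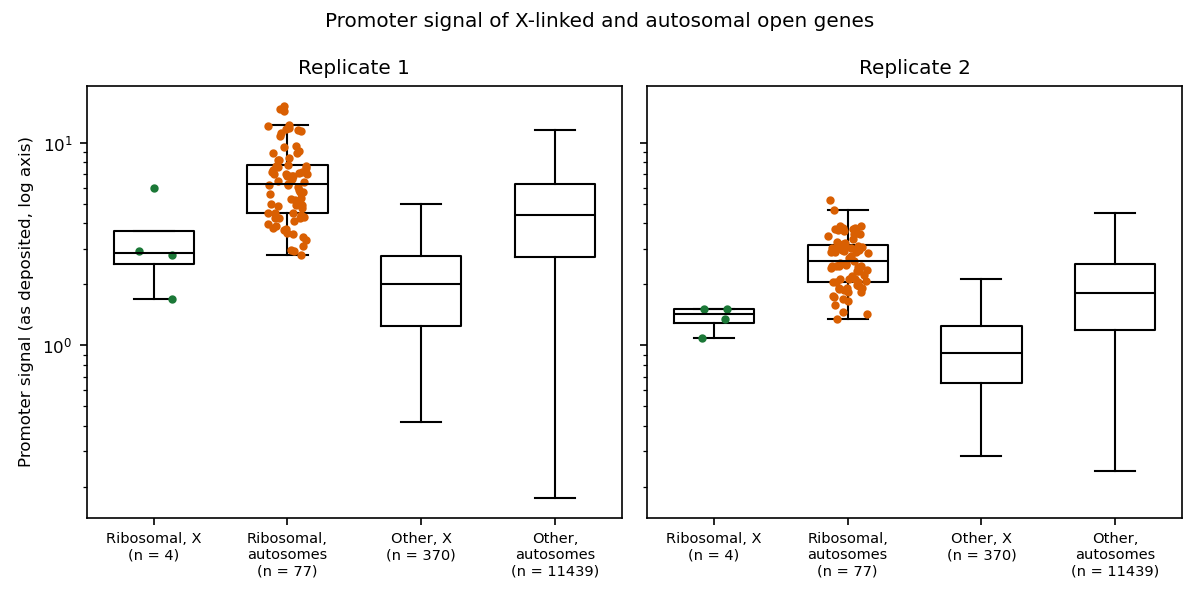
Promoter signal (y axis, log scale, units as deposited) of open genes in replicate 1 and replicate 2, as boxes of the quartiles with the median as a line and whiskers to the last gene within 1.5 box heights, and every ribosomal protein gene as a point. X-linked genes lie lower than autosomal genes among ribosomal protein genes (medians 2.85 against 6.29 in replicate 1) and among other genes (2.00 against 4.38).

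Both libraries ranked the members alike. Spearman's rho between their signals was 0.854 over the 81 open members and 0.858 over the other open genes, as a description over genes that share the same libraries. The strongest peaks of both libraries overlapped in 79 of 81 members, and the share in other open genes was not counted. Signals were higher in replicate 1 in 81 of 81 members and in 99.4% of the other open genes, a general offset with a median log2 ratio of replicate 1 over replicate 2 of 1.30 for members against 1.24 for other genes. The ratio was highest for Rpl36a (1.99) and Rps3a1 (1.97), and lowest for Rpl39 (0.17), Rplp2 (0.52) and Rpl30 (0.58). Rpl30, a large subunit protein that represses its own splicing in yeast, had 2.97 and 1.99.

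**Figure D3:**
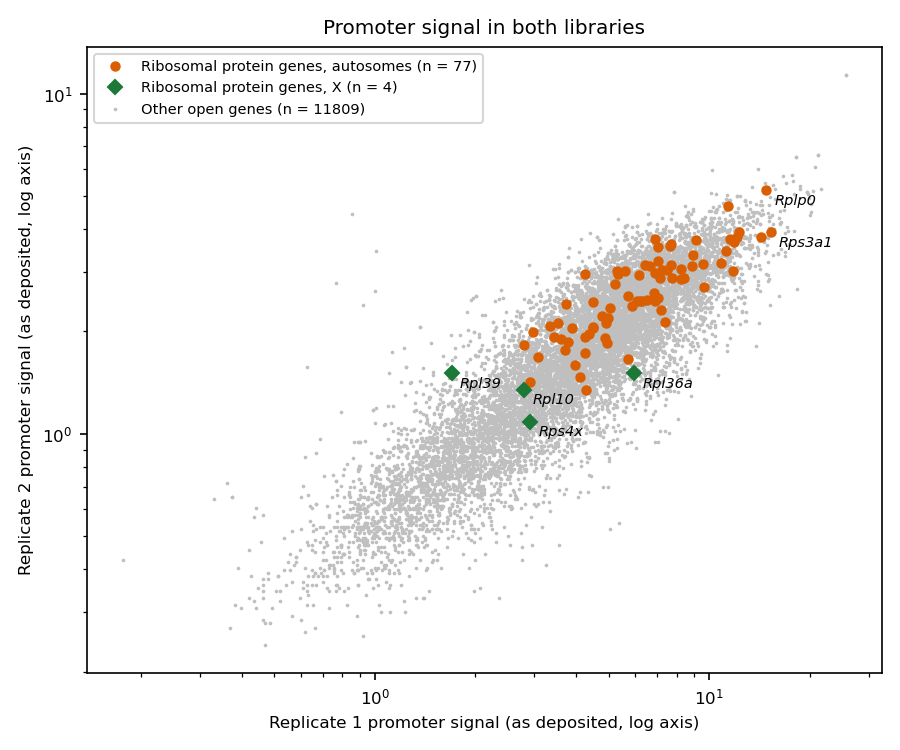
Promoter signal of open genes in replicate 1 (x axis) and replicate 2 (y axis), both on log axes in deposited units, for 77 autosomal (circles) and 4 X-linked (diamonds) ribosomal protein genes over 11809 other open genes (dots). Above the median of the other open genes lie 60 of 81 members in replicate 1 and 69 of 81 in replicate 2. Rpl39 is the leftmost member, with 1.70 in replicate 1 and 1.51 in replicate 2.

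Footprints are short stretches inside a peak that DNase I cut less than their surroundings, as happens under a bound protein. A footprint shared by both libraries, with an overlap of at least 50% of the shorter one, lay in the windows of 80 of 85 members, or 94.1%, beside 49.5% of all protein-coding genes. Among open genes this was 80 of 81 members, or 98.8%, beside 89%. The exception was Rpl8, with 5 footprints in replicate 1 and 3 in replicate 2 but none shared. Over the 81 open members there were 543 footprints in replicate 1, 444 in replicate 2 and 253 shared. Within each library the median per gene was the same for open members and other open genes, 6 in replicate 1 and 5 in replicate 2. Shared footprints had a median of 3 per open member, against 2 per other open gene. Of the open members 88.9% had 2 or more shared footprints, against 70.4%. Rps24, a small subunit gene, had the most with 8, and Rpl18 had 7. Rps12, Rps19, Rpl3 and Rpl13a had 6 each.

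Shared footprints covered more members than other open genes per base around and after the start. In the 50 bases before the reference start, shared footprints covered on average 24.3% of members per base, against 17.8% of other open genes, and in the first 50 bases from the start 19.2% against 10.9%. From 50 to 99 bases after the start the shares were 8.4% and 5.43%, and from 300 to 201 bases before it they were 2.22% and 3.32%. From 200 to 101 bases before the start they were 10.9% and 8.31%. From 100 bases after it up to, but not at, 200 bases they were 5.28% and 2.18%, and beyond that, up to 300 bases after it, 1.81% and 1.66%. The peak itself also sat closer to an annotated start: its middle lay at a median of 29 bp in replicate 1 and 41 bp in replicate 2 from the nearest start in members, against 50 and 58 bp in other open genes. Open members also had more annotated starts, a median of 6 against 5, and the part of this in the distance was not tested.

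**Figure D4:**
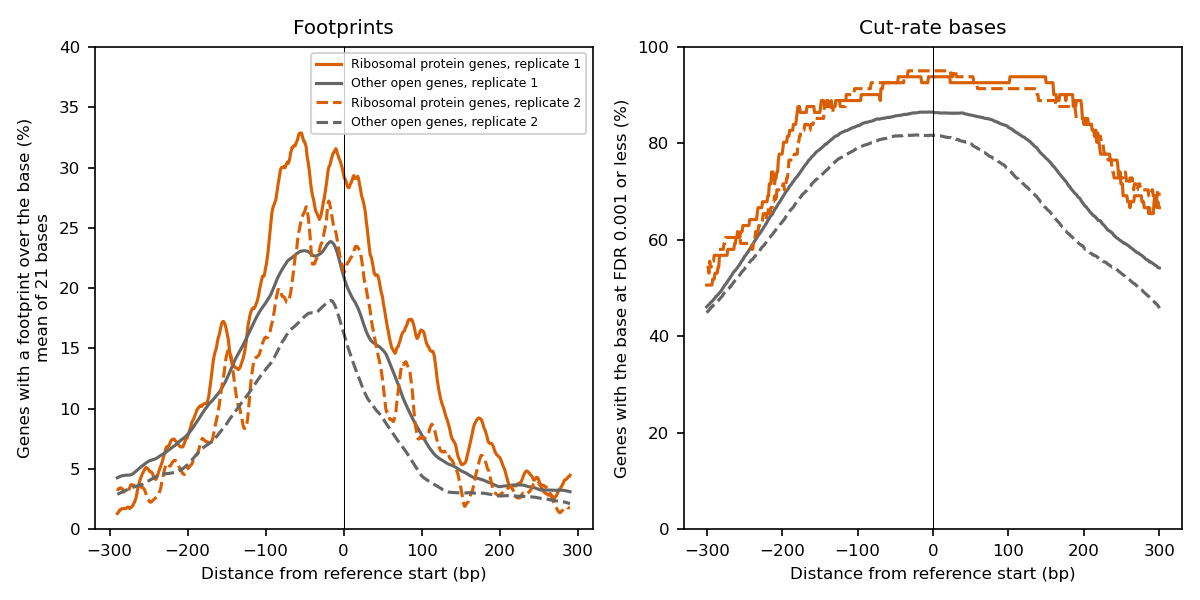
Left, the share of open genes with a footprint over each base (y axis, mean of 21 bases) by distance from the reference start (x axis, bp), and right, the share with the base at an FDR of 0.001 or less, for 81 ribosomal protein genes and 11809 other open genes in replicate 1 (solid) and replicate 2 (dashed). Members lie above the other genes around the start in both panels, and on the right they stay above them between 100 and 200 bp after it (91.9% against 76.5% in replicate 1).

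Members had more accessible bases around the start than other open genes. Of the bases from 500 bp before to 500 bp after the reference start, the median open member had 816 at an FDR of 0.05 or less in replicate 1 and 803 in replicate 2, against 765 and 743 for other open genes. From 100 bases after the start up to, but not at, 200 bases after it, a base was at an FDR of 0.001 or less in 91.9% of members in replicate 1 and 89.1% in replicate 2, against 76.5% and 66.6% of the other genes. From 200 to 101 bases before the start the shares were 86.7% and 84.1%, against 77.8% and 72.5%, so the excess lay on both sides. Rpl7, Rps12, Rps19 and Rps6 had all bases of the window at an FDR of 0.05 or less in both libraries. Rpl17, Rps14 and Rps10 had 0, because their reference start lies away from their peak, which stands at another annotated start. Only 78 members were open at the reference start, beside 49.8% of all genes.

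The sequence under shared footprints is shown for 8 promoters with strong signal or a recognisable site and for 2 weak X-linked ones. Each runs from 120 bases before to 19 bases after the RefSeq start (GRCm38.p6), 5′ to 3′ on the gene's strand, with the bases that lie under a footprint in both libraries in capitals.
Rplp0, chr5:115559347-115559486, plus strand: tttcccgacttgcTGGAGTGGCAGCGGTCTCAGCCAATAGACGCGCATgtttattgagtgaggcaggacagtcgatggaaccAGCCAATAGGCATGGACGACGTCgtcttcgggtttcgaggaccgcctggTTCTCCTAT
Rps3a1, chr3:86142649-86142788, minus strand: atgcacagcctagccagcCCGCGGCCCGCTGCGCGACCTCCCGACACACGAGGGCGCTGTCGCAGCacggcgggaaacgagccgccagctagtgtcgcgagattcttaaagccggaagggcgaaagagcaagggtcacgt
Rpl7a, chr2:26910687-26910826, plus strand: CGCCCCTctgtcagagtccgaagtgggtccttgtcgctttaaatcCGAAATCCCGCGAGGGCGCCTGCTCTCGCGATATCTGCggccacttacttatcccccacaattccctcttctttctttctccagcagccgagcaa
Rpl26, chr11:68901446-68901585, plus strand: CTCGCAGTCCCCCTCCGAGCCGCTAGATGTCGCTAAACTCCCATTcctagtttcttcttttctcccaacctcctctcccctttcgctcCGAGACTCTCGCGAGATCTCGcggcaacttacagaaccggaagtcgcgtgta
Rps19, chr7:24884472-24884611, plus strand: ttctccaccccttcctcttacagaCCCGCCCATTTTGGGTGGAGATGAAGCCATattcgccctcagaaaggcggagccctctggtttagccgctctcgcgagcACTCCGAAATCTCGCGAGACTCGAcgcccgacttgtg
Rps12, chr10:23787190-23787329, minus strand: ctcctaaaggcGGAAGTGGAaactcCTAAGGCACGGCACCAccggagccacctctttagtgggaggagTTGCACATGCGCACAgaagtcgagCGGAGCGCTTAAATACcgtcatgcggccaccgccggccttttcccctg
Rpl36al, chr12:69184048-69184187, minus strand: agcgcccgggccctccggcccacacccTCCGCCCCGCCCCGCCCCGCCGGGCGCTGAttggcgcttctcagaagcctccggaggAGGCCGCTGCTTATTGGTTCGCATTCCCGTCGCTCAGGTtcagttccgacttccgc
Rpl37a, chr1:72711140-72711279, plus strand: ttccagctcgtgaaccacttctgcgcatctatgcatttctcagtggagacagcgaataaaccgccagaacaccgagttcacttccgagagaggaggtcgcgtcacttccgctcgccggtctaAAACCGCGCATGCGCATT
Rps4x, chrX:102189372-102189511, minus strand: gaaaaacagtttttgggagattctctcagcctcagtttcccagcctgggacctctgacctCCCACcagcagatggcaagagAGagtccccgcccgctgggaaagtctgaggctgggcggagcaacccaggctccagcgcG
Rpl39, chrX:37085203-37085342, minus strand: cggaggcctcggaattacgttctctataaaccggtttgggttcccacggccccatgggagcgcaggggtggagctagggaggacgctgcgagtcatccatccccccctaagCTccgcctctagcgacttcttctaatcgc
In Rplp0, 2 of the capital stretches hold CCAAT, the box read by NF-Y, at 87 to 83 and at 36 to 32 bases before the start. In Rpl36al, 1 CCAAT on the opposite strand lay under footprints of both libraries, 24 to 20 bases before the start. In Rpl37a the capitals hold the palindrome read by NRF1 at 7 to 16 bases after the start. The X-linked Rps4x and Rpl39 show few capitals in this stretch, with 2 and 1 shared footprints in their whole windows.

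Of the elements sought, the one with the highest ratio of members to all genes was the palindrome TCTCGCGAGA, known in mouse and human cells as the binding element of BANP at CpG-rich promoters. TCTCGCGA or its reverse complement, the form sought on both strands, was found from 250 bases before to 50 bases after the RefSeq start in 11 of the 65 members with a RefSeq promoter sequence. This is 16.9%, beside 1.55% of all 16539 protein-coding genes with such a sequence. Among open genes it was 18.0% of 61 members against 2.40% of 9340 others. The 12 sites are shown with 16 bases on either side, from RefSeq (GRCm38.p6), 5′ to 3′ on the gene's strand, with the element in capitals, and with the whole palindrome in capitals where it is complete.
Rps3a1, chr3:86142671-86142710, minus strand: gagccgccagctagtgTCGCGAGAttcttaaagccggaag
Rpl7a, chr2:26910739-26910778, plus strand: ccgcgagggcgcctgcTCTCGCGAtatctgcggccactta
Rpl26, chr11:68901524-68901565, plus strand: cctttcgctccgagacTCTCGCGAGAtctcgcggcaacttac
Rpl27a, chr7:109519158-109519197, plus strand: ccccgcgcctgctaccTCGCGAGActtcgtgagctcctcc
Rps28, chr17:33824538-33824579, minus strand: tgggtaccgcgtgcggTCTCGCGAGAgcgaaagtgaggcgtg
Rpl10a, chr17:28328518-28328559, plus strand: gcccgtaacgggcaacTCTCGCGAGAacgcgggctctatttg
Rps19 upstream box, chr7:24884549-24884588, plus strand: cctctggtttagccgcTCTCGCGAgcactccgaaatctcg
Rps19 downstream box, chr7:24884568-24884609, plus strand: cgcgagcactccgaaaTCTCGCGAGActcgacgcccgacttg
Rps6, chr4:86857393-86857434, minus strand: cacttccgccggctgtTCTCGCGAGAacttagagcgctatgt
Rps15a, chr7:118116190-118116229, minus strand: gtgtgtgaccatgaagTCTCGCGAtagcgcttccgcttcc
Rpl12, chr2:32961642-32961683, plus strand: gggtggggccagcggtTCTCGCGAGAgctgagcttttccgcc
Rpl35, chr2:39005297-39005336, minus strand: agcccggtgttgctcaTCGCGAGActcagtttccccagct
All but that of Rpl35 lay within 66 bases before or 8 bases after the start. A footprint covered at least 50% of the element at 10 of the 12 sites in replicate 1 and 6 of 12 in replicate 2, and at 6 of 12 in both, against 57.1%, 47.9% and 40.2% of 259 sites in other open genes. Covered in both libraries were the elements of Rpl7a, Rpl26, Rps28, Rpl10a and Rps15a and the downstream element of Rps19. Those of Rps3a1, Rps6 and Rpl12 and the upstream element of Rps19 were covered in replicate 1 only, and those of Rpl27a and Rpl35 in neither. The 11 members with the element had median signals of 8.23 and 2.85, against 5.85 and 2.51 for the 50 open members whose RefSeq sequence lacked it, and 3 of them, Rps3a1, Rpl7a and Rpl26, are among the 10 strongest.

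The other elements had lower ratios of members to all genes. CCGGAAG, the core of ETS sites, read by GABPA among others, was found in 36.9% of members beside 12.4% of all genes, and in 37.7% of open members against 19.2% of other open genes. Of its 27 sites in open members 11 were under a footprint in replicate 1 and 10 in replicate 2, and 5 in both, or 40.7%, 37.0% and 18.5%, against 29.6%, 21.3% and 14.2% of sites in other open genes. TGACGTCA, the full CREB site, was found in 5 members (7.69% beside 2.42% of all genes), and those of Rpl18, Rps9, Rpl27a and Rpl13 lay under footprints in both libraries, while that of Rpl26 lay under none. In other open genes 75.1% of CREB sites were covered in both libraries. The 5 members with the CREB site had median signals of 8.90 and 3.55, against 6.03 and 2.47 for the 56 open members whose sequence lacked it, a wider gap than for TCTCGCGA. With CCAAT the medians were 7.32 and 2.88, against 5.74 and 2.46 without it, and with CCGGAAG 5.30 and 2.46, against 6.95 and 2.87 without it. The NRF1 palindrome was found in 3.08% of members beside 1.38% of all genes. Among open genes it was found in 3.28% of members against 2.33% of others. The 2 members with it were Rpl10a and Rpl37a. Both sites were covered in both libraries, as were 87.1% of NRF1 sites in other open genes. AAGATGGC, a YY1 site, was found in 7.69% of members beside 3.26%. GGGCGG, the box of Sp and Klf factors, was found in 60.0% of members beside 48.4% of all genes, but open members (62.3%) held it no more often than other open genes (67.0%). CCAAT was found in 30.8% of members beside 38.6% of all genes, and in 32.8% of open members against 39.8% of other open genes. TATAAA was found in 9.23% of members beside 12.9% of all genes, but in 9.84% of open members against 6.12% of other open genes. The E-box CACGTG, read by Myc among others, was found in 7.69% beside 8.08%, and in 8.2% of open members against 10.5% of other open genes. Of the 7 TATAAA sites in open members, those under footprints in both libraries all lay after the RefSeq start. They stood at 17 to 22 bases in Rplp0 and Rps2 and at 37 to 42 bases in Rps28. The site of Rpl22l1, 32 to 23 bases before the start, was covered in replicate 1 only. In other open genes 6.66% of 601 sites were covered in both libraries. These motifs were sought on both strands and may overlap one another, and no match says only that these letters are not in the window.

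**Figure D5:**
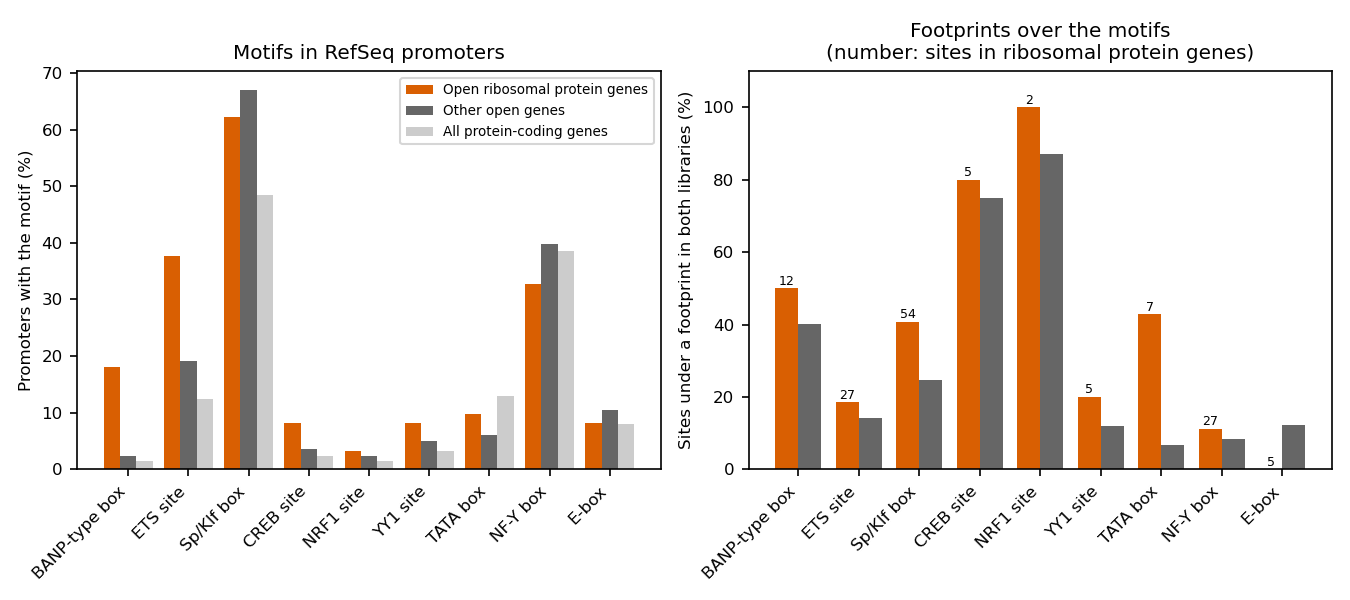
Left, the share of RefSeq promoters with each element (y axis) among 61 open ribosomal protein genes, 9340 other open genes and all 16539 genes, and right, the share of sites under a footprint in both libraries in the open ribosomal protein genes and other open genes, with the number of member sites above the bars. The BANP-type box, the element TCTCGCGA, stands at 18.0% in members against 2.40% in other open genes.

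Pyrimidine runs marked the starts. A C followed by 4 pyrimidines on the gene's strand began within 5 bases of the RefSeq start in 28 of 65 members, or 43.1%, beside 18.9% of all genes, and in 44.3% of open members against 19.4% of other open genes. CTTTCC on the gene's strand lay in the promoter window of 40% of members beside 13.8% of all genes, and within 20 bases of the start in 16.9% beside 1.84%. Annotated starts can lie some bases off the start in use, and 12 members had over 100 bp between the reference start and the RefSeq start, so these shares depend on the annotation. A footprint covered 4 of 28 CTTTCC sites in open members in replicate 1 and 3 of 28 in replicate 2, or 14.3% and 10.7%, close to the 14.2% and 8.67% of sites in other open genes. The CpG observed to expected ratio in 1000 bp around the reference start had a median of 0.814 in open members against 0.741 in other open genes, and its Spearman's rho with the members' signal was 0.366 and 0.379, as a description.

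Some member promoters are shared with a neighbour. The windows of 17 members held a start of another protein-coding gene, beside 13.2% of other genes, and 8 members (9.41%) had a start of the opposite strand within 1000 bp upstream, beside 6.99% of other genes. The 3 strongest were Rpl7a, 195 bp from the Mediator subunit gene Med22, Rpl9, 53 bp from the lipoic acid synthase gene Lias, and Rpl36al, 74 bp from the glycosyltransferase gene Mgat2. In each pair the strongest peak was the same for both genes, so the signal cannot be told apart between them. Inside their transcribed regions 30 members hold 58 annotated snoRNA genes on the same strand, small RNAs that guide modification of ribosomal and other RNA. How many other protein-coding genes hold one was not counted. The open members holding one had median signals of 6.65 and 2.86, against 5.97 and 2.46 for the 51 open members without one.

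Most genes around the ribosome were open too, beside 95.3% of the members. Of the ribosomal proteins under other symbols, 3 of 3 were open, with medians of 6.32 in replicate 1 and 3.01 in replicate 2. Among them Fau, which encodes a fusion with a ubiquitin-like protein, had 10.02 in replicate 1 and 3.10 in replicate 2, and the signalling scaffold Rack1 had 3.83 and 1.91. The mitochondrial ribosomal protein gene Mrpl49 had the same 10.02 and 3.10 as Fau, and whether 1 peak gave both was not tested. All 78 mitochondrial ribosomal protein genes were open, with medians of 5.07 and 1.92, against 6.18 and 2.51 for the cytosolic members. Ribosome biogenesis genes were open in 28 of 28 cases and RNA polymerase I genes in 14 of 14, beside 54.2% of all genes. Genes with symbols of Eif or Eef and a digit, mostly initiation and elongation factors, were open in 55 of 61 cases, beside the same 54.2%. That list also holds the Eif2ak and Eif4ebp genes, which are not such factors. The Eif4ebp genes also count among those that control TOP transcripts. Medians were 5.47 and 2.04 for biogenesis, 5.56 and 2.30 for RNA polymerase I, and 5.6 and 2.31 for the Eif and Eef genes. The ribosomal translocase Eef2 had 13.1 and 3.14, and the biogenesis gene Nop56 had 12.2 and 4.34. Among S6 kinase genes 9 of 10 were open, with medians of 4.09 and 1.21. Rps6kb1, the main Rps6 kinase, had 9.04 and 3.29. Of the genes that control TOP transcripts 12 of 14 were open, with medians of 6.48 and 2.60. These genes and the ribosomal proteins under other symbols had higher medians than the members in both libraries. Larp1, which binds the TOP motif, had only 1.90 and 0.848, while Rptor, which brings substrates to mTOR, had 11.1 and 3.41. The translation repressor genes Eif4ebp1 and Eif4ebp3 were not open, while Eif4ebp2, the form known to prevail in brain, had 8.74 and 3.49.

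Pseudogenes named after ribosomal protein genes were seldom open. Of 285 annotated pseudogenes whose symbol starts with Rpl or Rps and ends in -ps, with or without a number, 2 were open, or 0.702%. Of 6 protein-coding genes with such a symbol 0 were. Pseudogenes under other symbols were not counted, and no share of other pseudogenes was taken. Rpl29-ps2 had 2.83 in replicate 1 and 1.78 in replicate 2, and Rps19-ps10 had 1.74 and 0.675, below the lower quartile of the open members in both libraries. How reads that fit several copies were placed is not given in the sources used here, and its part in this count was not tested.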

How the data were processed

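DNase-seq was analysed in 2 libraries of 1 group, as labelled. The authors deposited, per library, 2 peak lists, footprints and bases of significant cut rate on mm10. The signal of each peak is the authors' deposited value, and its scaling is not stated. The FDR of footprints (constant at 0.01) and of cut-rate bases (listed up to 0.05) are deposited p-values corrected for many tests. What called the peaks is not given in the sources used here. As the stricter list served the one with fewer rows, without rescaling between libraries. Depth is unknown, and 2 libraries limit the precision of every value.

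Genes and starts came from GENCODE M21 (GRCm38, the same build as mm10). The reference start was the outermost start of the best-ranked principal transcript. Promoter sequences came from RefSeq (GRCm38.p6), which matched 65 of 85 members by symbol and chromosome. Motifs were exact strings. A gene's signal is that of its strongest peak within 500 bp of any start, and percentiles are among open genes. Python 3.11.15 with numpy 2.4.6, pandas 2.3.3 and scipy 1.17.1 was used, and figures were drawn with matplotlib 3.10.9. Overlap counting was tested on simulated data. The members, gene lists, motifs and alternatives were chosen with earlier results of these data known. Genes were named by role and by fixed ranks of signal, footprints, cut-rate bases and library ratio. With 1 group, no test was run. Values of a few single genes are not reported here, although these genes are in the counts and medians.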

Additional observations from a re-analysis of the deposited data

How the results depend on the processing

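The number of open members stayed at 78 to 81 of 85 under every alternative peak list, window and start, and was 81 to 81 with either replicate left out. With RefSeq starts 61 of 65 members were open, beside 52.6% of genes with one, and without genes that share a window with another gene 64 of 68 were. The choices in that sentence were made after seeing the data. The log2 fold of median signal over other open genes, 0.51 averaged over libraries, was 0.62 with the longer peak lists and 0.60 without the members and the other genes that share a window with another gene, and 0.49 to 0.53 with a replicate left out. The longer lists leave the members' signals as they are and add weaker other genes. Members with a shared footprint, 80, became 81 at an overlap of 1 bp and 77 at the reference start alone, and 81 to 81 had a footprint in the replicate kept. The excess of cut-rate bases, a difference of medians averaged over libraries, was 55.5, and 51 to 60 with a replicate left out. At an FDR of 0.001 it became 68, but the libraries were unlike. The medians there were 654 against 626 in replicate 1 and 671 against 563 in replicate 2. In a shorter motif window, from 100 bases before the start, the E-box was found in 1 member in place of 5 and CCAAT in 13 in place of 20; the cause was not tested beyond the smaller window. No result reversed among the 60 alternatives run, but most of these are counts of genes, which have no sign that could reverse. No paired analysis was possible because both libraries belong to 1 group. Unknown depth and 2 libraries limit every value.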
